A study of Mus musculus with 24 samples.

Results

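Chemokines are small secreted proteins that guide migrating leukocytes, and 43 genes for chemokines and their receptors were followed in inguinal white adipose tissue, a fat depot under the skin. The genes were taken by name: rows of the deposited count table named as a CC, CXC, CX3C or XC chemokine ligand or receptor, with at least 10 counts in 4 or more libraries. Of 63 rows with such a name among 35727 genes, 43 met the count rule (29 ligands and 14 receptors), and all 43 were among the 15259 genes tested. The other 20 rows, among them Ccl20, Cxcl5, Ccr6 and Ccr8, had too few counts and were not analysed here.

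The study compared wild-type (WT) mice with AdL3KO mice (KO), in which LPCAT3, an enzyme that loads polyunsaturated fatty acids onto phospholipids, was deleted. All were males aged 18 to 22 weeks, and all ate a high-fat diet with 60% of calories from fat, enriched in saturated (SFA), omega-6 (n6) or omega-3 (n3) fat. The 6 groups were therefore WT and KO on SFA, WT and KO on n6, and WT and KO on n3, each with 4 libraries and none on a lean diet. Neither the driver of the deletion nor whether each library came from a separate animal is given in the sources used here, so p-values measure only the spread between these libraries.

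In obese fat, the ligands Ccl2 and Ccl7 draw monocytes from the blood through the receptor Ccr2, and these cells become tissue macrophages. Cxcl9 and Cxcl10 are made in response to interferon gamma and attract T cells through Cxcr3, while Ccl21a, Ccl19 and Cxcl13 place lymphocytes within lymphoid tissue through Ccr7 and Cxcr5. Chemokine receptors are coupled to inhibitory G proteins, and several ligands share a receptor.

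Library totals ran from 43599424 to 62128983 estimated counts, with a median of 50220046. Lpcat3 itself averaged 117 ± 13.5 CPM (counts scaled to equal library size; SD, n = 4) in WT and 75.4 ± 4.32 in KO on SFA. On n6 the means were 69.6 ± 2.83 in WT and 49.0 ± 0.994 in KO, and on n3 they were 114 ± 3.13 and 58.2 ± 3.22, with no overlap on any diet (adjusted p = 1.88e-08, 5.34e-07 and 4.71e-11). On the deposited scale corrected for transcript length (TPM), its mean was lower in KO on n3 only: 102 against 80.2, compared with 101 against 106 on SFA and 69.5 against 74.3 on n6. The series title names mature adipocytes, but the labels describe no isolation of them, and macrophage markers were present in every library (13 genes summing to 837 to 2103 CPM). B cell markers (10 genes) summed to 49.9, 39.6 and 55.4 CPM in WT on SFA replicate 3, KO on SFA replicate 2 and KO on n6 replicate 2, against 4.88 to 12.1 CPM in the other 21 libraries. Skeletal muscle markers (6 genes) summed to 272 CPM in KO on n6 replicate 1, against at most 72.4 CPM elsewhere.

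The monocyte-recruiting trio Ccl2, Ccl7 and Ccr2 was lower in KO on every diet, and Cxcl9 was higher in KO on every diet; these had the smallest p-values among the members in the average over the diets. Ccl6, Ccl9 and Ccl11 were also lower on all 3 diets. Of the 43 members, 7 were lower and 1 was higher throughout. Among all genes tested, 10% were lower and 11.4% were higher on all 3 diets. A further 16 members passed the test on 1 or 2 diets, 19 on none, and no member passed it in opposite directions on different diets.

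On SFA, 13 of 43 members passed the test (edgeR quasi-likelihood F test, adjusted p under 0.05), 1 higher and 12 lower in KO. Of all genes tested, 39.9% passed there, 20% higher and 19.9% lower. On n6, 20 members passed, 8 higher and 12 lower, against 43.1% of all genes (21% higher, 22.1% lower). On n3, 13 members passed, 1 higher and 12 lower, against 38.8% of all genes (20.1% higher, 18.7% lower). The share of members that passed was thus near or below that of all genes, while on SFA and n3 the calls leaned to lower expression. The median log2 fold change of the 43 members was -0.38 on SFA, 0.17 on n6 and -0.32 on n3, while that of all genes lay between -0.03 and 0.00 on each diet. When the deposited TPM were tested in place of counts, the split on n6 was 5 higher and 17 lower, and the median over all genes was itself -0.16.

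**Figure D1:**
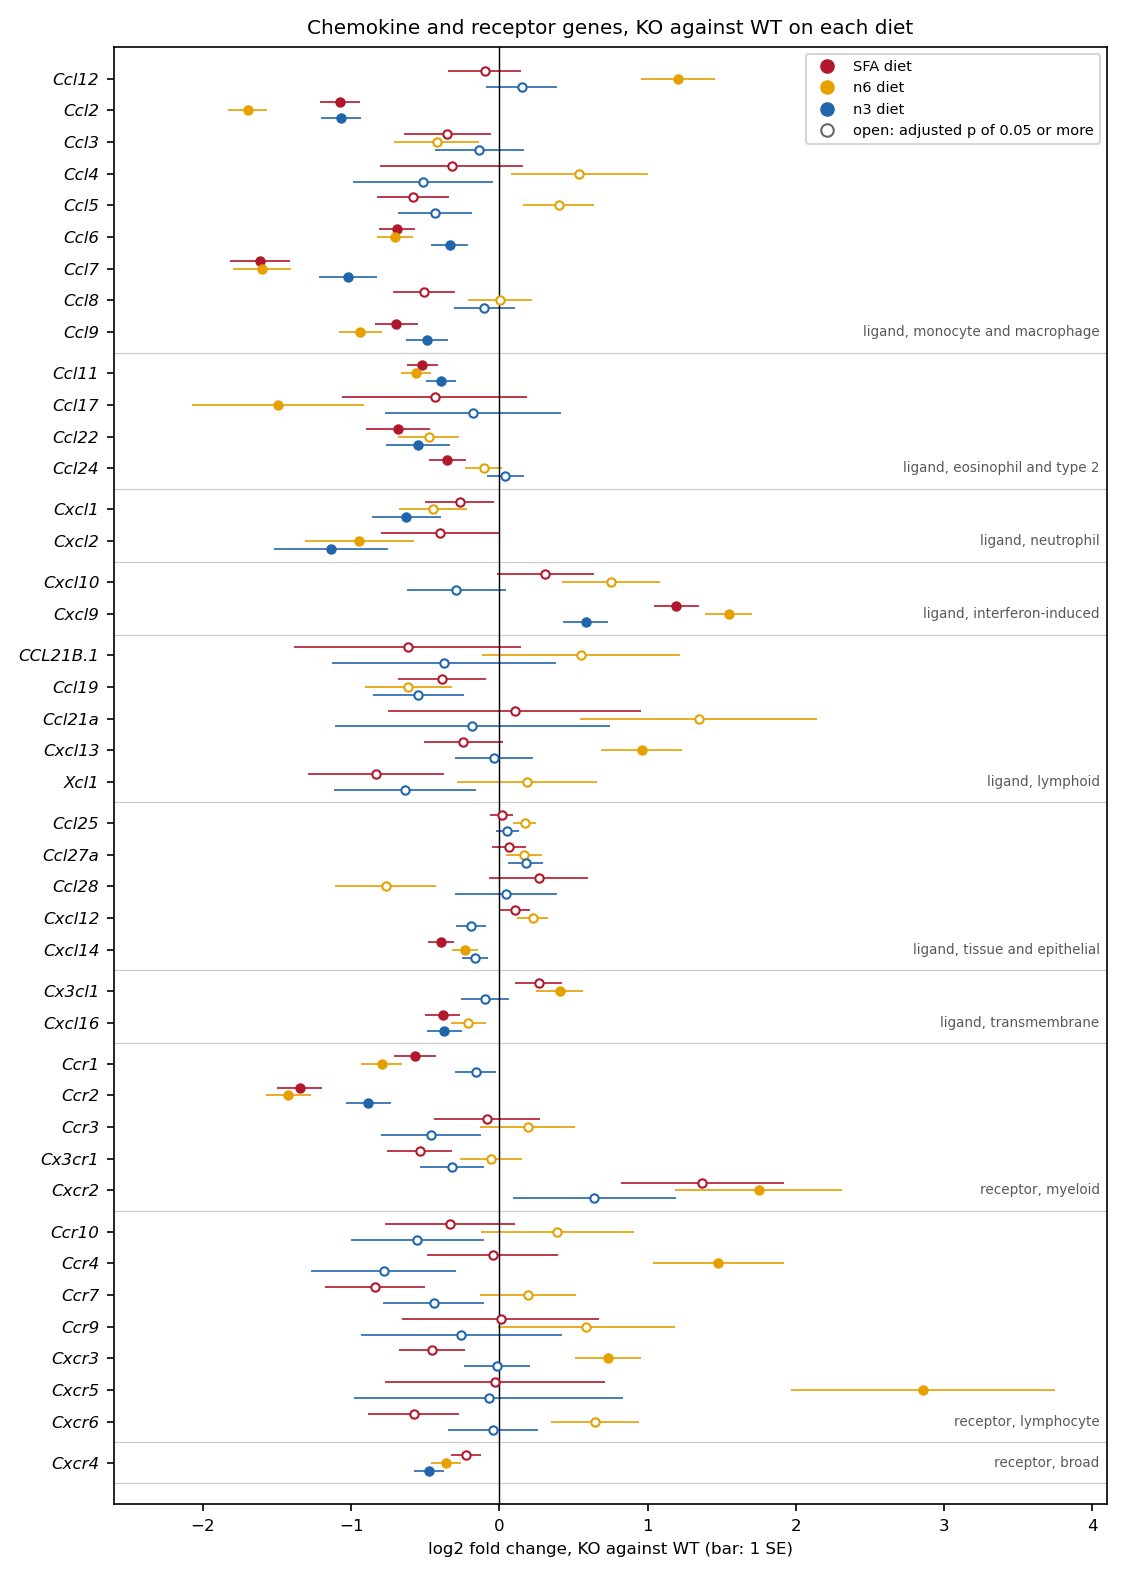
Log2 fold change of KO against WT (x axis; bars, 1 SE) for 42 members (y axis, grouped by role) on the SFA, n6 and n3 diets; filled points passed the test at an adjusted p under 0.05. Ccl2, Ccl7 and Ccr2 lie left of 0 on every diet, Cxcl9 lies right of 0 on every diet, and the lymphocyte receptors lie to the right on n6.

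Among the 9 ligands that act mainly on monocytes and macrophages, Ccl2, Ccl6, Ccl7 and Ccl9 fell on each diet, and Ccl12 rose on n6. Ccl2 is the main monocyte attractant of obese fat. On SFA, Ccl2 read 6.85, 5.51, 7.71 and 6.604 CPM in WT and 3.23, 3.31, 2.75 and 3.38 CPM in KO. On n6, Ccl2 read 11.5, 10.8, 14.1 and 12.5 CPM in WT and 3.801, 4.18, 2.76 and 4.31 CPM in KO. On n3, Ccl2 read 5.98, 6.803, 7.06 and 6.43 CPM in WT and 3.405, 3.33, 2.32 and 3.46 CPM in KO. Every KO library was below every WT library on each diet, and the 4 WT libraries on n6 were the highest of all 24. The log2 fold change of Ccl2 was -1.08 (SE 0.13, adjusted p = 8.49e-07) on SFA, -1.70 (SE 0.13, adjusted p = 4.64e-10) on n6, and -1.07 (SE 0.13, adjusted p = 1.47e-06) on n3, which is a level 2.11, 3.25 and 2.1001 times lower.

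Ccl7 is a second Ccr2 ligand and the gene next to Ccl2. On SFA, Ccl7 read 5.41, 5.42, 6.03 and 6.52 CPM in WT and 2.66, 1.53, 1.82 and 1.62 CPM in KO. On n6, Ccl7 read 6.95, 7.09, 9.62 and 7.55 CPM in WT and 3.72, 2.22, 1.45 and 2.86 CPM in KO. On n3, Ccl7 read 4.64, 6.23, 5.26 and 5.14 CPM in WT and 2.81, 2.35, 2.94 and 2.37 CPM in KO. No KO library reached a WT library of the same diet, and all 12 KO libraries lay at or below 3.72 CPM while all 12 WT libraries lay at or above 4.64 CPM. Its log2 fold change was -1.61 (SE 0.20, adjusted p = 1.04e-06) on SFA, -1.60 (SE 0.20, adjusted p = 6.72e-07) on n6, and -1.02 (SE 0.20, adjusted p = 0.000289) on n3.

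Ccr2, the receptor for both ligands and the mark of newly arriving monocytes, had the highest mean level of the 14 receptors per transcript length (25.8 TPM over all libraries). On SFA, Ccr2 read 73.9, 68.2, 51.9 and 60.03 CPM in WT and 26.9, 27.5, 20.6 and 25.03 CPM in KO. On n6, Ccr2 read 97.9, 83.9, 95.6 and 69.7 CPM in WT and 30.7, 37.9, 23.1 and 37.6 CPM in KO. On n3, Ccr2 read 49.5, 63.7, 63.6 and 50.9 CPM in WT and 35.6, 27.1, 30.3 and 30.5 CPM in KO. The 2 genotypes did not overlap on any diet, with every KO library at or below 37.9 CPM and every WT library at or above 49.5 CPM. Ccr2 changed by -1.35 (SE 0.15, adjusted p = 4.65e-07) on SFA, by -1.42 (SE 0.15, adjusted p = 1.59e-07) on n6, and by -0.88 (SE 0.15, adjusted p = 0.000102) on n3, all on the log2 scale.

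**Figure D2:**
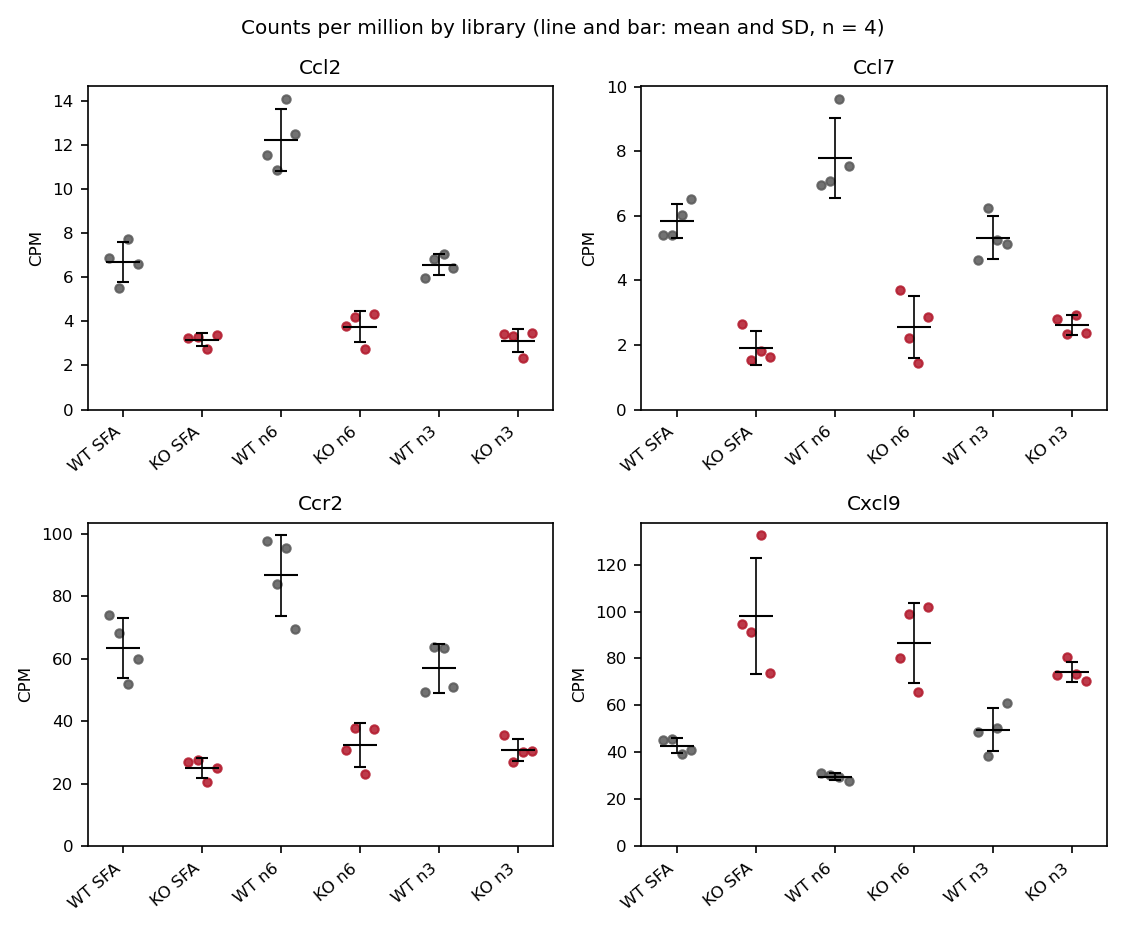
CPM (y axis, from 0) of Ccl2, Ccl7, Ccr2 and Cxcl9 in each library (points) of the 6 groups (x axis), with the group mean (line) and SD (bar), n = 4. KO libraries sit below WT for the first 3 genes and above WT for Cxcl9 on each diet, and WT on n6 has the highest Ccl2, at 10.8 to 14.1 CPM.

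Ccl6 and Ccl9 are neighbouring CC ligands that bind Ccr1, a receptor of monocytes and neutrophils. They were the most abundant members per transcript length, at means of 269 and 127 TPM over all libraries. On SFA, Ccl6 read 191, 158, 166 and 146 CPM in WT and 114, 105, 89.04 and 102 CPM in KO. On n6, Ccl6 read 272, 256, 252 and 169 CPM in WT and 170.3, 139, 129 and 143 CPM in KO. On n3, Ccl6 read 144, 188, 176 and 183 CPM in WT and 150.5, 136, 133 and 129 CPM in KO. The groups were apart on SFA only, since on n6 the lowest WT library (replicate 4) lay just under the highest KO library, and on n3 WT replicate 1 lay within the KO range. Ccl6 changed by -0.69 (SE 0.12, adjusted p = 0.000133) on SFA, by -0.71 (SE 0.12, adjusted p = 8.26e-05) on n6, and by -0.34 (SE 0.12, adjusted p = 0.0358) on n3. The call on n3 was lost with no filter on low counts, in both fits with macrophage markers, and without any single one of WT replicates 2, 3 and 4 or KO replicates 2, 3 and 4 on n3.

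Ccl9 ran in parallel at a lower level. On SFA, Ccl9 read 129, 111, 123 and 106 CPM in WT and 84.1, 76.1, 61.9 and 67.8 CPM in KO. On n6, Ccl9 read 223, 196, 189.9 and 129 CPM in WT and 115, 81.6, 86.8 and 102 CPM in KO. On n3, Ccl9 read 100.1, 137, 122 and 129.6 CPM in WT and 99.04, 87.9, 81.5 and 79.7 CPM in KO. KO and WT libraries did not overlap on any diet, although on n3 the nearest pair differed by little (99.0 against 100.1 CPM). Its log2 fold change was -0.69 (SE 0.14, adjusted p = 0.000561) on SFA, -0.94 (SE 0.14, adjusted p = 1.75e-05) on n6, and -0.49 (SE 0.14, adjusted p = 0.00993) on n3.

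Ccl12, another mouse ligand of Ccr2, was a low-level member at 4.21 TPM on average. On SFA, Ccl12 read 0.616, 0.621, 0.728 and 0.681 CPM in WT and 0.689, 0.542, 0.542 and 0.699 CPM in KO. On n6, Ccl12 read 0.412, 0.492, 0.472 and 0.276 CPM in WT and 1.06, 1.13, 0.476 and 1.16 CPM in KO. On n3, Ccl12 read 0.707, 0.724, 0.656 and 1.03 CPM in WT and 0.726, 1.05, 0.6599 and 1.02 CPM in KO. On n6, 3 of 4 KO libraries were above 1 CPM and KO replicate 3 lay among the WT libraries, while on SFA and n3 the genotypes overlapped throughout. The log2 fold change was 1.21 (SE 0.25, adjusted p = 0.000418) on n6, and the values on SFA (-0.10, adjusted p = 0.791) and n3 (0.15, adjusted p = 0.654) did not pass the test.

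The remaining ligands of this role were Ccl3, Ccl4, Ccl5 and Ccl8, and none of them passed the test on any diet. Their log2 fold changes ran from -0.58 (Ccl5 on SFA, adjusted p = 0.0623) to 0.54 (Ccl4 on n6, adjusted p = 0.369). Ccl5, which attracts T cells and monocytes, averaged 4.87 ± 0.823 CPM in WT and 3.26 ± 0.587 in KO on SFA, without overlap. On n6 its means were 3.93 ± 0.931 in WT and 5.19 ± 1.39 in KO, with overlap.

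The 4 ligands linked to eosinophils and type 2 responses were lower or did not pass the test. Ccl11 (eotaxin), an eosinophil attractant that binds Ccr3, fell on all 3 diets. On SFA, Ccl11 read 48.8, 47.8, 39.7 and 45.2 CPM in WT and 29.8, 31.7, 25.5 and 39.7 CPM in KO. On n6, Ccl11 read 54.7, 48.1, 51.7 and 50.2 CPM in WT and 41.6, 32.3, 32.3 and 32.4 CPM in KO. On n3, Ccl11 read 45.2, 53.97, 46.5 and 45.8 CPM in WT and 34.7, 35.2, 37.98 and 37.8 CPM in KO. All WT libraries were above all KO libraries of the same diet, although on SFA WT replicate 3 and KO replicate 4 were nearly equal. Ccl11 changed by -0.52 (SE 0.10, adjusted p = 0.000376) on SFA, by -0.56 (SE 0.10, adjusted p = 0.000137) on n6, and by -0.39 (SE 0.10, adjusted p = 0.00459) on n3.

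Ccl22, a Ccr4 ligand made by dendritic cells and macrophages, fell on SFA (-0.68, adjusted p = 0.0132) and n3 (-0.55, adjusted p = 0.0472) but did not pass the test on n6 (-0.48, adjusted p = 0.067). The call on n3 was lost with RLE scaling, with no filter, without the 3 or 4 libraries rich in B cell or muscle transcripts and in both fits with macrophage markers (adjusted p = 0.0525 to 0.287). Ccl24, a second Ccr3 ligand, fell on SFA only (-0.35, adjusted p = 0.0304). Ccl17, the other Ccr4 ligand, fell on n6 only (-1.49, adjusted p = 0.0406), at levels of 0.0453 to 0.594 CPM with overlapping groups. Whether the effects on these 3 genes differed among diets did not pass the interaction test (adjusted p = 0.869, 0.29 and 0.479). Ccr3 itself did not pass the test on any diet, and the eosinophil markers summed to 1.45 CPM at most, with Epx at 0 in 5 of the 6 groups.

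The neutrophil attractants Cxcl1 and Cxcl2 both signal through Cxcr2 and lie side by side on chromosome 5. Cxcl2 fell on n6 (-0.94, adjusted p = 0.0424) and n3 (-1.14, adjusted p = 0.0226), and Cxcl1 fell on n3 (-0.63, adjusted p = 0.0357). Both calls on n3 were lost in both fits with macrophage markers. That for Cxcl2 was also lost in the fits on TPM, and that for Cxcl1 with only the groups compared. The Cxcl2 call on n6 was lost with no filter, only the groups compared, the B cell covariate or macrophage markers, and without the libraries rich in B cell or muscle transcripts. On SFA both genes had values below 0 that did not pass (-0.27, adjusted p = 0.388 for Cxcl1 and -0.40, adjusted p = 0.462 for Cxcl2). Their receptor went the other way on n6, where Cxcr2 rose (1.75, adjusted p = 0.0146). Its levels there were 0.0544 to 0.138 CPM in WT and 0.181 to 0.531 CPM in KO. Cxcr2 had 10 or more counts in only 9 libraries. The count rule may have admitted it through KO, where it is high, so its call adds no support of its own. That call was lost without the libraries rich in B cell or muscle transcripts (log2 fold change 1.14, adjusted p = 0.139), and the highest Cxcr2 level of each of these groups was in the library highest in B cell markers on SFA in both genotypes and on n6 in KO. Neutrophil markers (6 genes, with Ly6g at 0 in every group) summed to 8.67 to 13.8 CPM in WT and 5.57 to 7.41 CPM in KO on n6. In each group 4 of the 6 averaged under 1 CPM, so the sums rest on few genes. The mean log2 level of the list overlapped on n6, at -2.20 to -1.93 in WT and -2.56 to -1.46 in KO. The part of neutrophils was not tested. Averaged over the diets S100a8 fell and S100a9 rose (log2 fold changes -0.9998 and 0.81, adjusted p = 2.23e-10 and 0.00307).

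Because Cxcl1 and Cxcl2 are neighbours of like direction, the 250 bases before their RefSeq start sites (mouse GRCm38.p6) are shown. Capitals mark matches to the NF-kappaB consensus, a binding motif of inflammatory transcription factors.
Cxcl1, chr5:90890995-90891244, plus strand: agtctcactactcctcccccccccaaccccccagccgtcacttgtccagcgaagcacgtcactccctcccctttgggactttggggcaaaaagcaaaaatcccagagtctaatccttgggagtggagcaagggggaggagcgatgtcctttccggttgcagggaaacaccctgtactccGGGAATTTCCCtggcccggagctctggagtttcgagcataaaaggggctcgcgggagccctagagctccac
Cxcl2, chr5:90903649-90903898, plus strand: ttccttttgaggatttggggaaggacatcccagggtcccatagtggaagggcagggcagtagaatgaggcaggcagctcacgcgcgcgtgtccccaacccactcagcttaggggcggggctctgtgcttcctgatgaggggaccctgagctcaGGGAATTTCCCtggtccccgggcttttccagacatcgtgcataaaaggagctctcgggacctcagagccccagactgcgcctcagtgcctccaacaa
Both windows hold the same 11 bases in capitals, GGGAATTTCCC, in which the consensus matches at 2 overlapping positions. RefSeq windows of this kind were found for 31 of the 43 members, and 6 of these 31 (19.4%) hold the consensus on either strand, against 8.23% of 27025 genes with a window. The 6 were Cxcl1, Cxcl2, Cxcl10, Ccl9, Ccr1 and Ccr3.

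Of the interferon-induced pair Cxcl9 and Cxcl10, the first passed the test. Cxcl9, a ligand of Cxcr3, rose on all 3 diets. On SFA, Cxcl9 read 45.3, 45.7, 39.4 and 40.96 CPM in WT and 94.6, 91.4, 133 and 73.7 CPM in KO. On n6, Cxcl9 read 31.04, 30.4, 29.3 and 27.8 CPM in WT and 80.1, 98.96, 65.6 and 102 CPM in KO. On n3, Cxcl9 read 48.8, 38.5, 50.5 and 60.8 CPM in WT and 72.9, 80.6, 73.3 and 70.4 CPM in KO. KO and WT did not overlap on any diet, and the lowest levels of all were in WT on n6. Cxcl9 changed by 1.19 (SE 0.15, adjusted p = 2.54e-06) on SFA, by 1.55 (SE 0.16, adjusted p = 8.39e-08) on n6, and by 0.58 (SE 0.15, adjusted p = 0.00481) on n3, which is 2.29, 2.92 and 1.497 times higher in KO. On n3 the call was lost when deposited TPM were tested (0.35 on the log2(TPM + 1) scale, adjusted p = 0.13), and it held on SFA and n6.

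Cxcl10, the gene beside Cxcl9 and a ligand of the same receptor, did not pass the test on any diet. On SFA, Cxcl10 read 1.92, 2.39, 2.17 and 2.06 CPM in WT and 2.66, 3.31, 3.64 and 0.979 CPM in KO. On n6, Cxcl10 read 2.11, 1.29, 2.27 and 2.05 CPM in WT and 2.87, 5.15, 1.29 and 3.697 CPM in KO. On n3, Cxcl10 read 2.43, 2.63, 2.195 and 2.699 CPM in WT and 2.38, 2.09, 1.34 and 2.31 CPM in KO. On SFA 3 KO libraries were above all WT libraries and KO replicate 4 was below them, on n6 KO replicate 3 lay level with the lowest WT library while the other 3 were above all of WT, and on n3 the groups overlapped. The log2 fold changes were 0.31, adjusted p = 0.489, 0.75, adjusted p = 0.0721 and -0.29, adjusted p = 0.523 on SFA, n6 and n3. The difference in response between the 2 genes was not tested.

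The windows before the 2 start sites are shown because the genes lie 18.6 kb apart and only Cxcl9 passed the test. Capitals mark an interferon-stimulated response element (on either strand) or the NF-kappaB consensus.
Cxcl9, chr5:92328080-92328329, minus strand: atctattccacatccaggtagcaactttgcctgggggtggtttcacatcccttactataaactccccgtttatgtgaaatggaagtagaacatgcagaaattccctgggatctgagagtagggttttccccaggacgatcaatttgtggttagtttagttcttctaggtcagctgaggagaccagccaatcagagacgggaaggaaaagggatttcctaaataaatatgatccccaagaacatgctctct
Cxcl10, chr5:92348890-92349139, minus strand: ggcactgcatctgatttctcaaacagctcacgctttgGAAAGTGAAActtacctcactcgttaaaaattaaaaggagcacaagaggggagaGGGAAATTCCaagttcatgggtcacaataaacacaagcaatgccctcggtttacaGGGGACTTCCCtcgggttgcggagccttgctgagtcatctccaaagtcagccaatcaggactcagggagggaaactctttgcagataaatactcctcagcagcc
Cxcl10 holds 1 response element, at positions -213 to -204 before the start, and 2 stretches that match the NF-kappaB consensus. No match to either motif was found in these 250 bases before Cxcl9, which says nothing of sites elsewhere. The response element was found in 3 of the 31 member windows (9.68%; Ccl19, Cxcl10 and Cxcl14) and in 3.46% of all 27025. The gamma-activated site TTCNNNGAA was found in 2 member windows (6.45%; Ccl17 and Cxcl14) and in 8.13% of all.

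Upstream of these genes, the interferon-signalling factor Irf1 is given here, chosen after its values were seen. Its link to the level of Cxcl9 was not tested. Of 35 tested upstream regulators, 16, 15 and 15 were lower and 4, 7 and 2 were higher in KO on SFA, n6 and n3. Most calls among these regulators were thus in the direction opposite to that of Irf1. Irf1 averaged 50.7 ± 3.18 CPM in WT and 67.9 ± 6.11 in KO on SFA (SD, n = 4). On n6 the means were 40.9 ± 2.76 and 62.6 ± 6.56, and on n3 they were 51.9 ± 4.96 and 54.5 ± 2.99. Its log2 fold change was 0.42 (adjusted p = 0.000135), 0.61 (1.18e-06) and 0.07 (0.503).

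The 5 lymphoid ligands were Ccl19, Ccl21a, the row CCL21B.1, Cxcl13 and Xcl1. Ccl21a and CCL21B.1 are near-identical copies of one gene family, as is Ccl19 among its own copies, so that reads may have been split between them and their single values are uncertain. Cxcl13, which attracts B cells through Cxcr5, rose on n6 (0.96, adjusted p = 0.00713), from 0.946 to 3.24 CPM in WT to 3.49 to 5.84 CPM in KO without overlap. Ccl21a on n6 averaged 1.71 ± 0.615 CPM in WT and 4.34 ± 5.68 in KO, where a single library, KO replicate 2, held 12.8 CPM, and the difference did not pass (1.34, adjusted p = 0.189). Ccl19 did not pass on any single diet, and in the average over the diets it was lower in KO (log2 fold change -0.52, adjusted p = 0.0132). CCL21B.1 and Xcl1 passed on no diet, with means of 0.234 to 0.817 CPM and 0.267 to 0.551 CPM.

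The 7 lymphocyte receptors were Ccr4, Ccr7, Ccr9, Ccr10, Cxcr3, Cxcr5 and Cxcr6. On n6 all 7 had positive log2 fold changes, and Ccr4 (1.48, adjusted p = 0.00945), Cxcr3 (0.73, adjusted p = 0.01) and Cxcr5 (2.86, adjusted p = 0.0127) passed the test. Ccr4 was near the floor on n6, at 0.0394 to 0.136 CPM in WT and 0.159 to 0.306 CPM in KO. It had 10 or more counts in only 4 libraries, the fewest that the count rule allows. The rule may have admitted it through the group where it is high, so its call adds no support of its own. On SFA 6 of 7 and on n3 all 7 had negative values, and none passed. By an unadjusted p under 0.05 the counts were 1 (Ccr7) on SFA and 0 on n3, and DESeq2 called 1 and 0, rules for which the share of all genes was not counted. Cxcr5, the B cell receptor for Cxcl13, read 0.0538, 0.0848, 0.127 and 0.158 CPM in WT and 0.234, 2.15, 0.295 and 0.449 CPM in KO on n6. The groups did not overlap, and KO replicate 2, the library highest in B cell markers, was far above the other 3 KO libraries. Cxcr3, the receptor for Cxcl9, read 1.65, 1.697, 1.47 and 1.104 CPM in WT and 2.63, 2.77, 1.31 and 3.13 CPM in KO on n6, where 3 of 4 KO libraries were above all WT libraries.

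Lymphocyte markers moved with these receptors on n6. In KO on n6, 8 of 9 T cell markers and 6 of 10 B cell markers were higher than in WT. Summed T cell markers ran from 11.8 to 15.1 CPM in WT and 25.6 to 42.8 CPM in KO on n6, with no marker at 0 in any group. On SFA and n3 the summed T cell level was also higher in KO (35.7 to 55.4 against 21.9 to 26.9 CPM, and 32.1 to 39.6 against 18.8 to 24.8 CPM). There only 1 of 9 markers was higher, Trac, and on SFA Cd2 was lower. Averaged over the diets, Trac, the constant part of the T cell receptor alpha chain, had a log2 fold change of 1.78 (adjusted p = 3.23e-13) and Cd2 one of -0.50 (adjusted p = 0.00499). In bulk tissue, fewer cells of a type and less RNA per cell cannot be told apart, and this holds for every member.

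**Figure D3:**
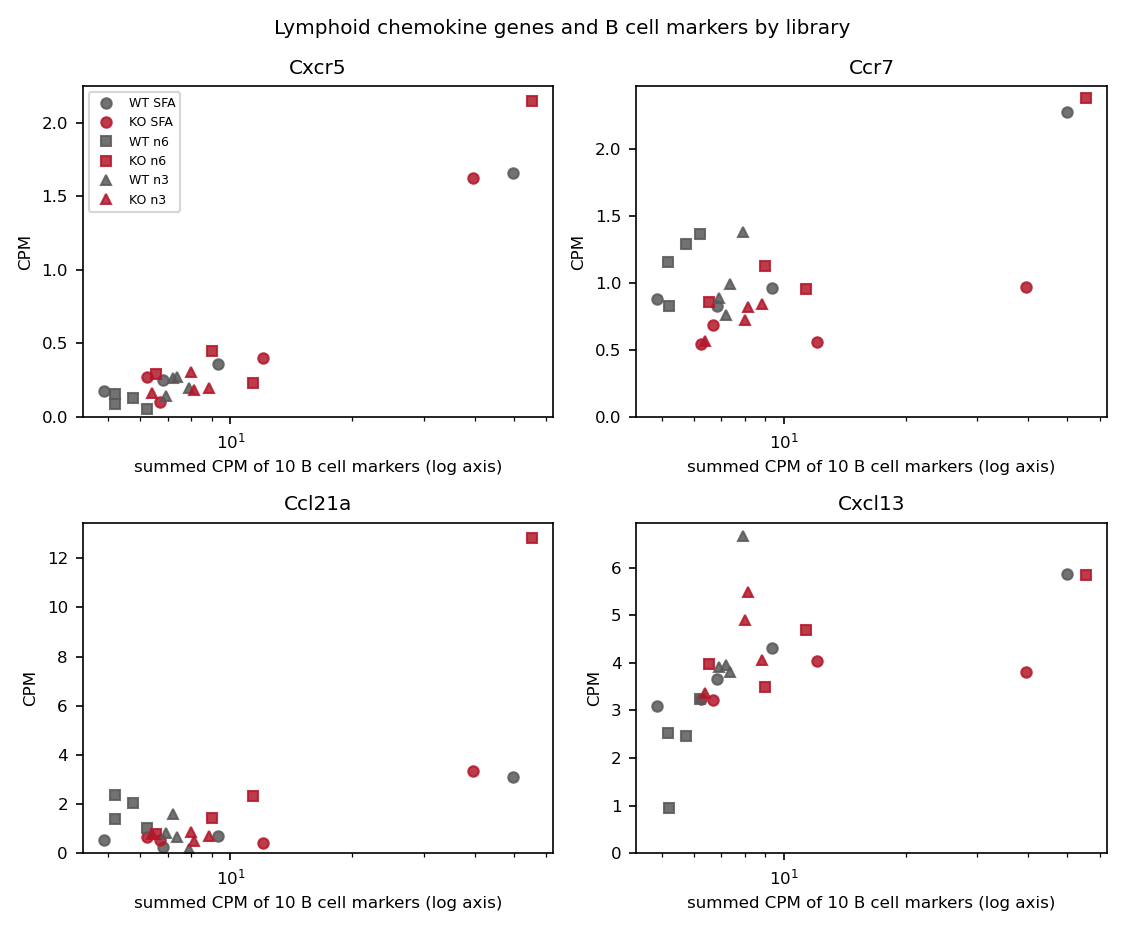
CPM (y axes, from 0) of Cxcr5, Ccr7, Ccl21a and Cxcl13 in each library against the summed CPM of 10 B cell markers (x axis, log scale), with WT in grey, KO in red and the diet by symbol. The 3 libraries highest in B cell markers, at 39.6 to 55.4 CPM, hold the 3 highest Cxcr5 and Ccl21a values.

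Without WT on SFA replicate 3, KO on n6 replicate 1 and KO on n6 replicate 2, the libraries rich in B cell or muscle transcripts, 13 members passed on n6 in place of 20. The 8 calls lost were Cxcl13, Cxcr2, Cx3cl1, Ccl17, Cxcr5, Ccr4, Cxcr3 and Cxcl2, and Ccl19 was gained (log2 fold change -1.28, adjusted p = 0.000878). Of the 8 members higher on n6, Cxcl9 (1.499, adjusted p = 7.49e-06) and Ccl12 (0.99, adjusted p = 0.0181) still passed. With the B cell markers as a covariate, Cxcr5 on n6 went from 2.86 to 0.67 (adjusted p = 0.217). When KO on SFA replicate 2 was left out as well, Cxcr5 on n6 passed (1.81, adjusted p = 0.00700).

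Of the 5 ligands of tissue and epithelial origin, only Cxcl14 passed the test between genotypes. Cxcl14, a ligand of fibroblasts and epithelia, read 71.8, 64.8, 60.1 and 62.8 CPM in WT and 45.9, 53.3, 41.2 and 57.3 CPM in KO on SFA. On n6, Cxcl14 read 64.4, 61.2, 67.6 and 59.4 CPM in WT and 62.3, 53.2, 47.3 and 52.5 CPM in KO. On n3, Cxcl14 read 70.5, 63.1, 62.4 and 69.5 CPM in WT and 60.04, 64.6, 56.3 and 56.3 CPM in KO. The groups were apart on SFA (-0.39, adjusted p = 0.0012), and overlapped on n6 (-0.23, adjusted p = 0.0407) and n3, where the test was not passed (-0.16, adjusted p = 0.158). The call on n6 was lost in 10 of 37 alternatives: no filter, the fits with B cell, macrophage or all 3 marker lists, and without any single one of WT replicates 1, 2 and 3 or KO replicates 2, 3 and 4 on n6. Fibroblast and progenitor markers were lower in KO as well, 6 of 6 on SFA, 5 of 6 on n6 and 1 of 6 on n3, and their part in the result was not tested. On average Dcn and Col1a1 of that list fell by 0.26 and 0.48 on the log2 scale (adjusted p = 1.62e-06 and 1.17e-05).

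Cxcl12, the stromal ligand of Cxcr4 and the third most abundant member per length (86.2 TPM), did not pass the test between genotypes on counts over all groups. On SFA, Cxcl12 read 162, 149, 142 and 153 CPM in WT and 160.3, 182, 144 and 164 CPM in KO. On n6, Cxcl12 read 157, 141, 172 and 153 CPM in WT and 197, 197, 162 and 172 CPM in KO. On n3, Cxcl12 read 175, 147, 174 and 153 CPM in WT and 139, 133, 117 and 178 CPM in KO. The genotypes overlapped on each diet, and the log2 fold changes ran from -0.19 on n3 to 0.22 on n6. In TPM its means were lower in KO on each diet: 74.9 against 88.5 on SFA, 90.1 against 102 on n6 and 68.8 against 92.9 on n3. In the fits on TPM it passed on n3 and on average. With only the groups compared it passed on n6, so its outcome depended on the scale and fit. Ccl25, Ccl27a and Ccl28 did not pass on any diet either, with values between -0.77 (Ccl28 on n6, adjusted p = 0.0716) and 0.27.

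Both ligands that are anchored in the membrane passed on some diets. Cxcl16, which binds Cxcr6 and also takes up oxidized lipoprotein, fell on SFA (-0.38, adjusted p = 0.0121) and n3 (-0.37, adjusted p = 0.0161). On SFA, Cxcl16 read 10.4, 9.29, 10.3 and 10.3 CPM in WT and 8.24, 8.48, 7.03 and 7.13 CPM in KO. On n6, Cxcl16 read 11.3, 10.96, 11.8 and 8.61 CPM in WT and 10.04, 9.697, 6.71 and 10.4 CPM in KO. On n3, Cxcl16 read 9.65, 10.6, 10.4 and 10.8 CPM in WT and 8.898, 8.84, 6.51 and 7.802 CPM in KO. The genotypes were apart on SFA and n3 and overlapped on n6, where the test was not passed (-0.21, adjusted p = 0.157). Cx3cl1, the fractalkine of endothelium and neurons, rose on n6 (0.41, adjusted p = 0.0395) with overlapping groups. In TPM its means there were nearly equal, 3.24 ± 1.07 in WT and 3.23 ± 0.646 in KO. The call was lost with no filter, in the fits on TPM and in every fit with marker covariates. It was also lost without the 3 or 4 libraries rich in B cell or muscle transcripts.

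The myeloid receptors included Ccr1, Ccr2, Ccr3, Cx3cr1 and Cxcr2. Ccr1, which binds Ccl6 and Ccl9, read 7.36, 5.06, 6.24 and 5.39 CPM in WT and 4.33, 4.94, 3.17 and 3.82 CPM in KO on SFA. On n6, Ccr1 read 10.6, 10.6, 8.62 and 7.29 CPM in WT and 5.16, 5.66, 4.53 and 6.03 CPM in KO. On n3, Ccr1 read 5.803, 6.498, 7.58 and 6.54 CPM in WT and 6.54, 5.88, 5.48 and 5.79 CPM in KO. KO was below WT in every library on SFA and n6, and the genotypes overlapped on n3. The log2 fold change was -0.57 (SE 0.14, adjusted p = 0.00267) on SFA, -0.79 (SE 0.14, adjusted p = 5.83e-05) on n6, and -0.16 (SE 0.14, adjusted p = 0.386) on n3.

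Cx3cr1, the receptor for fractalkine on monocytes and macrophages, did not pass on any single diet. On SFA, Cx3cr1 read 1.603, 1.99, 1.49 and 1.65 CPM in WT and 1.18, 1.36, 1.01 and 1.099 CPM in KO. On n6, Cx3cr1 read 1.59, 1.87, 2.59 and 2.58 CPM in WT and 2.34, 2.12, 1.16 and 2.68 CPM in KO. On n3, Cx3cr1 read 1.83, 1.54, 1.88 and 1.77 CPM in WT and 1.702, 1.33, 0.933 and 1.66 CPM in KO. The genotypes were apart on SFA and overlapped on the other diets, and in the average over the diets the log2 fold change was -0.30 (SE 0.12, adjusted p = 0.0399). That call was lost in 14 of 36 alternatives: the 2 fits with macrophage markers, and without any single one of WT replicate 2 or KO replicates 1, 3 and 4 on SFA, WT replicates 3 and 4 or KO replicate 3 on n6, and WT replicates 1, 3 and 4 or KO replicates 2 and 3 on n3.

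Cxcr4, the receptor for Cxcl12 on most leukocytes, fell on n6 and n3. On SFA, Cxcr4 read 13.5, 10.2, 12.4 and 10.2 CPM in WT and 10.7, 11.1, 7.65 and 10.2 CPM in KO. On n6, Cxcr4 read 15.9, 17.9, 16.6 and 16.1 CPM in WT and 12.5, 13.3, 14.2 and 11.9 CPM in KO. On n3, Cxcr4 read 13.7, 12.4, 13.9 and 12.1 CPM in WT and 8.76, 10.2, 8.53 and 9.97 CPM in KO. KO was below WT in every library on n6 (-0.36, adjusted p = 0.00551) and n3 (-0.48, adjusted p = 0.000832), and the groups overlapped on SFA (-0.22, adjusted p = 0.0862).

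Averaged over the diets, 19 members passed the test, 3 higher (Cxcl9, Cxcr2 and Ccl12) and 16 lower, against 57.6% of all genes (27.8% higher, 29.8% lower). Of the 3 higher, Cxcr2 may have met the count rule through KO, as given above. Read without a test, KO and WT libraries did not overlap in 17 of 43 members on SFA (36.1% of all genes), 12 on n6 (39.1%) and 10 on n3 (32.7%). Of these, 16, 7 and 9 were lower in KO, against 18.1%, 19.7% and 15.6% of all genes. Ccl2, Ccl7, Ccl9, Ccl11 and Ccr2 were below WT without overlap on all 3 diets, and Cxcl9 was above.

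Many chemokine genes lie in clusters left by gene duplication, and neighbours were not always called alike. Differences between neighbours were not tested. In the group on chromosome 11 from 82035571 to 82116799 (GENCODE M21, GRCm38), the order along the plus strand is Ccl2, Ccl7, Ccl11, Ccl12 and Ccl8, within 81.2 kb. The first 3 fell on every diet, Ccl12 rose on n6, and Ccl8 did not pass on any diet (0.00, adjusted p = 0.988 on n6). On SFA the Ccl8 means were 13.2 ± 1.53 CPM in WT and 9.29 ± 2.65 in KO, with overlap. There Ccl8 passed with DESeq2, only the groups compared, the replicate block and in the fits on TPM. In the second group on chromosome 11, 138.9 kb long, the adjacent Ccl9 and Ccl6 fell on every diet, and Ccl5, Ccl3 and Ccl4 passed on none. On SFA Ccl5 passed with DESeq2, with only the groups compared and in the fits on TPM, and on n3 in the fits on TPM. On chromosome 9, Ccr2 fell on every diet and Ccr1 on 2 diets, while Ccr9, Cxcr6 and Ccr3 passed on none.

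**Figure D4:**
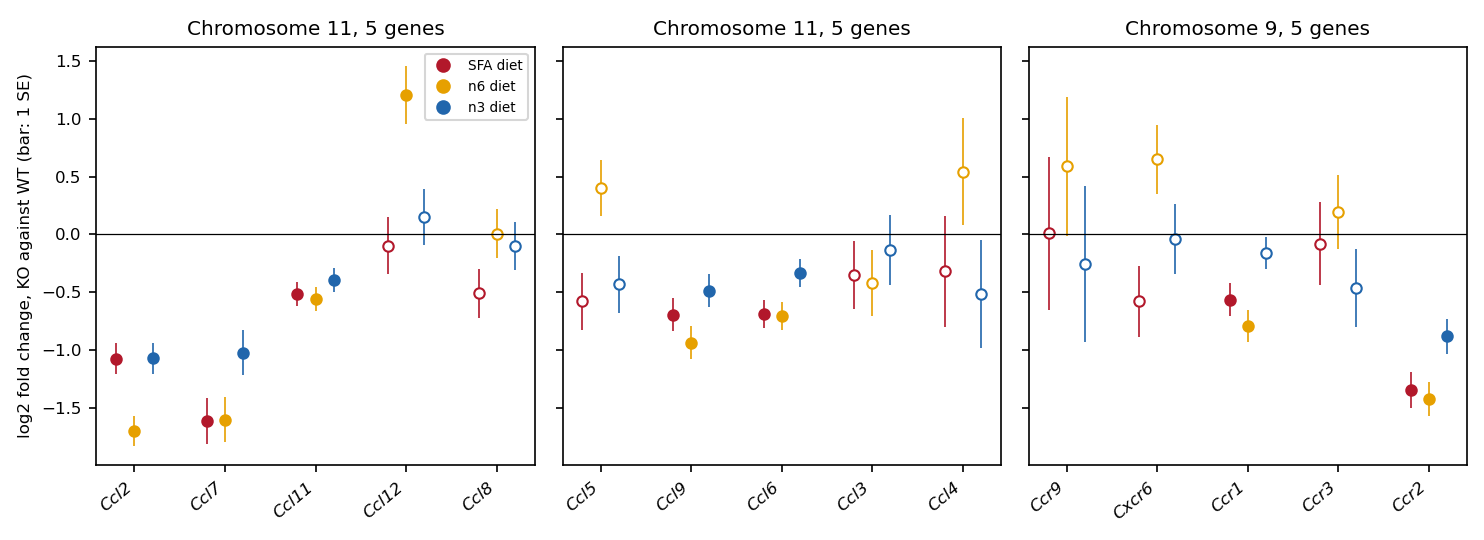
Log2 fold change of KO against WT (y axis; bars, 1 SE) for the members of 3 gene clusters in their order along the chromosome (x axis, not to scale) on each diet; open points have an adjusted p of 0.05 or more. In the first cluster Ccl2, Ccl7 and Ccl11 lie below 0 on every diet and Ccl12 lies at 1.21 on n6.

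The windows before Ccl6 and Ccl9, 2 neighbours that fell together, are shown in the same way, with matches to the NF-kappaB consensus in capitals.
Ccl6, chr11:83593088-83593337, minus strand: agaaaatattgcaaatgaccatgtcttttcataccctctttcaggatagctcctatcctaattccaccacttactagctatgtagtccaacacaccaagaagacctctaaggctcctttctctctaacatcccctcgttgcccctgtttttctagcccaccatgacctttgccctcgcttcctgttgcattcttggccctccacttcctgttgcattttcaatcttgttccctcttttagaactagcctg
Ccl9, chr11:83578637-83578886, minus strand: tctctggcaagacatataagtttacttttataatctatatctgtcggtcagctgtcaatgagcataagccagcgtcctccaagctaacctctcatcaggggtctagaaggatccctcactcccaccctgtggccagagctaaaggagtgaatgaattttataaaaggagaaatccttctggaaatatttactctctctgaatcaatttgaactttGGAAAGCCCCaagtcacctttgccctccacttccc
Ccl9 holds 1 match, GGAAAGCCCC, from position -35 to -26 before the start, and Ccl6 holds none of the 3 motifs searched.

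Macrophage markers moved with the myeloid members. Of 13 markers, 11 were lower in KO on SFA, 9 lower and 1 higher (Timd4) on n6, and 7 lower on n3. Their summed level ran from 1352 to 1628 CPM in WT and 837 to 1120 CPM in KO on SFA, from 1445 to 2103 and 1210 to 1483 CPM on n6, and from 1413 to 1707 and 1155 to 1479 CPM on n3. No macrophage marker was at 0 in any group. Averaged over the diets, Lyz2 and Itgam, both of macrophages and other myeloid cells, fell by 0.65 and 0.65 on the log2 scale (adjusted p = 4.6e-08 and 2.78e-07). Of 6 markers of lipid-associated macrophages, 2, 6 and 6 were lower in KO on the SFA, n6 and n3 diets, and Itgax and Mmp12 fell by 0.87 and 0.92 on average (adjusted p = 1.43e-08 and 9.45e-07).

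With the mean log2 level of these markers as a covariate, 4 members passed on SFA (Ccl2, Ccl7, Ccr2 and Cxcl9), 14 on n6 and 5 on n3. The covariate itself differed between genotypes, without overlap on SFA (5.88 to 6.18 in WT and 5.32 to 5.71 in KO). The share of all genes passing with it was not counted, so the lower counts cannot be read as particular to the members. Ccl2, Ccl7, Ccr2 and Cxcl9 passed on all 3 diets in that fit. The values for Ccl2 were -0.85, -1.52 and -0.94 (adjusted p = 0.00113, 1.33e-07 and 4.91e-05) on SFA, n6 and n3. Those for Ccr2 were -0.95, -1.09 and -0.64 (adjusted p = 0.000645, 4.85e-05 and 0.0033). Ccl6 went from -0.69 to -0.16 on SFA and from -0.34 to -0.01 on n3, and Ccl9 from -0.69 to -0.12 and from -0.49 to -0.13, none of them passing. On n6 both still passed, at -0.25 and -0.44 (adjusted p = 0.0119 and 0.000937), and with B cell, T cell and macrophage markers as covariates both calls were lost (-0.16 and -0.28, adjusted p = 0.33 and 0.105). Cxcl16 turned to a value just above 0 on SFA (0.03, adjusted p = 0.915).

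**Figure D5:**
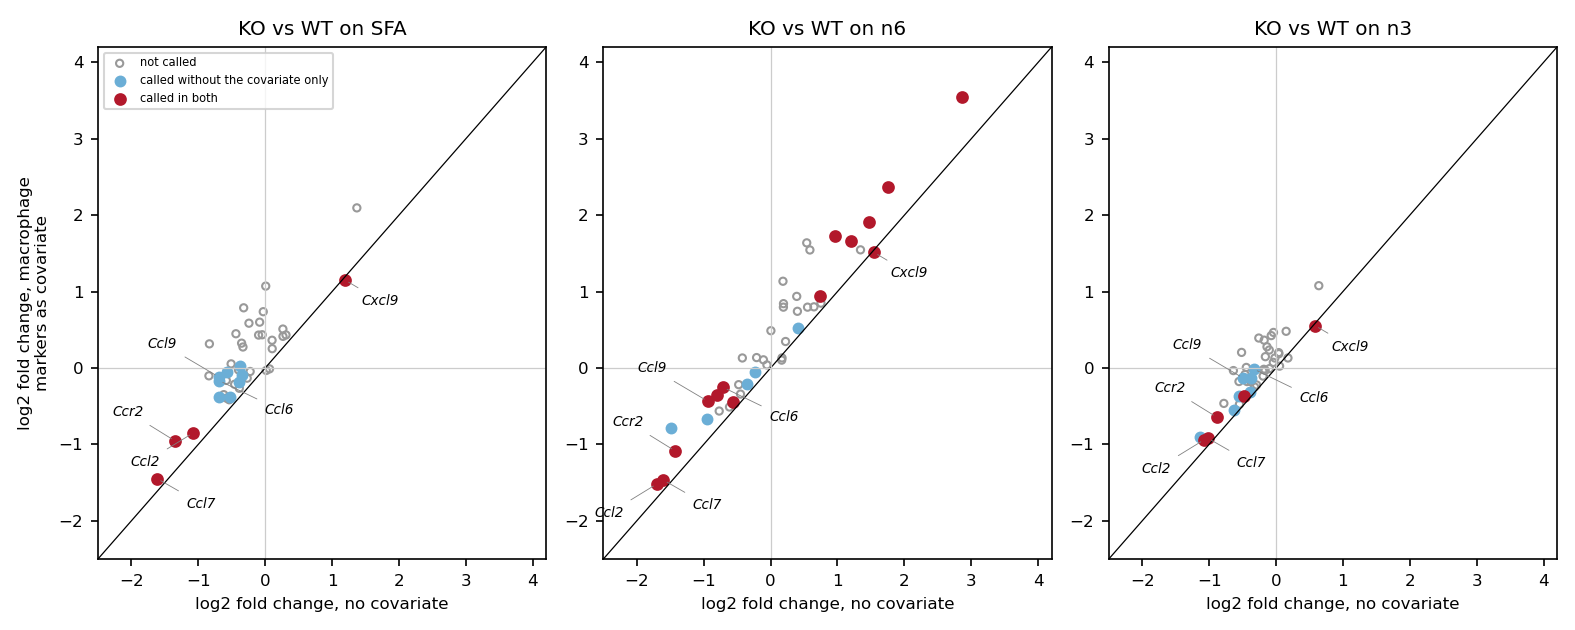
Log2 fold change of KO against WT for 42 members with the macrophage markers as a covariate (y axis) against the value without it (x axis), on each diet; the line marks equal values. Ccl2, Ccl7, Ccr2 and Cxcl9 passed in both fits on every diet, with Ccr2 moving from -1.35 to -0.95 on SFA, and Ccl6 and Ccl9 passed in both on n6 only.

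The size of the genotype effect differed among the diets for 3 members by the interaction test: Cxcl9 (adjusted p = 0.0254), Ccl12 (0.0457) and Ccl2 (0.0481), against 6.44% of all genes. For Cxcl9 the log2 fold change on n3 was lower than on n6 by a difference of -0.96 (adjusted p = 0.0112). For Ccl2 the difference of n3 minus n6 was 0.63 (adjusted p = 0.0381), while Ccr1 and Ccr4, which did not pass the interaction test, had 0.64 (adjusted p = 0.0436) and -2.26 (adjusted p = 0.0355). The calls for Ccl12 and Ccl2 were lost in 28 and 27 of 36 alternatives and that for Cxcl9 in 9 of 36. Without the libraries rich in B cell or muscle transcripts no member passed the interaction test.

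Diet itself was read within each genotype. The n6 diet stood apart from the others in WT for genes at large. Of all genes, 24.7% passed between n6 and SFA, 18.4% between n3 and n6, and 0.144% between n3 and SFA. Of the 43 members, 11, 11 and 0 passed, so the count between n6 and SFA was near the share of all genes. Ccl2 was higher on n6 than on SFA in WT (log2 difference 0.87 (SE 0.12, adjusted p = 3.61e-05)) and lower on n3 than on n6 (-0.90 (SE 0.12, adjusted p = 2.43e-05)), without overlap. Cxcl9 went the other way, lower on n6 than on SFA (-0.53 (SE 0.16, adjusted p = 0.017)) and higher on n3 than on n6 (0.74 (SE 0.16, adjusted p = 0.00208)). Cxcr4 was higher on n6 than on SFA in WT (0.52 (SE 0.10, adjusted p = 0.000726)). These comparisons share the WT n6 libraries.

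Also higher on n6 than on SFA in WT were Ccr1, Ccl9, Ccl6, Cxcl2, Ccr2 and Ccr3, and lower were Cxcl13 and Cxcr5. Without the libraries rich in B cell or muscle transcripts, one of them WT on SFA replicate 3, the calls for Cxcl13, Cxcr5, Ccr2 and Cxcl2 were lost. With the B cell markers as a covariate those for Cxcl13, Cxcr5 and Cxcl2 were lost. Between n3 and n6 in WT, Ccl9, Ccr2, Ccl6, Ccr1, Cxcr4 and Ccl7 were lower on n3, and Ccl12, Cxcl13 and Ccl8 were higher. Summed macrophage markers had medians of 1461 CPM on SFA, 1947 CPM on n6 and 1628 CPM on n3 in WT. With these markers as a covariate, 5 members passed between n6 and SFA in WT, and 3 of the 11 were kept, Ccl2, Cxcr4 and Cxcl13.

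In KO, 8 members passed between n6 and SFA (22.8% of all genes) and 6 between n3 and n6 (26% of all genes). All 8 were higher on n6 (8.92% of all genes were): Ccl6 (0.50, adjusted p = 0.00697), Cx3cr1 (0.84, adjusted p = 0.00927), Cxcr4, Ccr3, Cxcr3, Cxcr6, Ccl9 and Ccr7. All 6 were lower on n3 than on n6 (10.3% of all genes were): Cxcr4 (-0.47, adjusted p = 0.00338), Cxcl12 (-0.36, adjusted p = 0.0142), Cx3cl1, Ccr4, Ccl5 and Ccl21a. These counts moved with the libraries used: without KO on n6 replicate 3 they were 17 and 15, without KO on n6 replicate 4 the first was 4, without KO on n3 replicate 3 the second was 2, and without the 3 libraries rich in B cell or muscle transcripts they were 0 and 1. Between n3 and SFA, no member passed in WT (0.144% of all genes did) or in KO (1.46%). By an unadjusted p under 0.05 the counts there were 2 and 7, and DESeq2 called 0 and 4. The shares of all genes by these other rules were not counted.

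Genes around the pathway were counted from lists of related receptors and scavengers, of signalling below the receptors and of regulators upstream. Of 20 tested related genes, KO had 11 lower on SFA, 9 on n6 and 9 on n3, and 1 higher on each diet, Mif, a ligand that can act through Cxcr4 (average log2 fold change 0.39, adjusted p = 1.43e-08). Cd74, the invariant chain and a binding partner of Mif, fell (-0.80, adjusted p = 5.51e-10). Of 35 signalling genes, 19 were lower on each diet and 4, 4 and 5 were higher. Among these, Rgs2, a regulator of G protein signalling, rose (1.32, adjusted p = 1.38e-12), and Arrb1, which encodes the receptor-desensitizing beta-arrestin 1, fell (-0.42, adjusted p = 9.11e-11). Of 35 tested upstream regulators, 16, 15 and 15 were lower and 4, 7 and 2 were higher. Cebpb, an inflammatory and adipogenic transcription factor, rose (0.68, adjusted p = 6.58e-11), and Stat6, the factor of interleukin-4 signalling, fell (-0.24, adjusted p = 3.3e-10). The median log2 fold changes of the 3 lists in the average over the diets were -0.21, -0.19 and -0.19, beside -0.01 for all genes.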

How the data were processed

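Poly-A RNA of samples labelled inguinal white adipose tissue was sequenced as paired ends, per the labels' protocols. The submitters' processing notes name fastp 0.23.2, Salmon and the mm10 build; the annotation and Salmon's version were not given in the sources used here. The authors deposited estimated counts per gene, fractional values that were rounded here to whole numbers, and a table of TPM. The tables were linked by row: zeros matched in 100% of cells, and 32239 of 32242 matched symbols stood in the same row.

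Genes were filtered with filterByExpr (minimum count 10, minimum total 15), scaled by TMM and tested over all 24 libraries and 6 groups with edgeR 4.0.16 (quasi-likelihood F test, 18 residual degrees of freedom, R 4.3.3). P-values were adjusted by Benjamini-Hochberg over all 15259 genes tested, with a threshold of 0.05. CPM were computed here from the rounded counts with TMM scaling, and log2 fold changes from the deposited counts. At library totals of 43599424 to 62128983, a member below 1 CPM rests on few counts and has a wide error.

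The members and gene lists were chosen with earlier results of these data known. A member that the counts include and a gene of the lists are not reported here by name or value. Values of each library were given for members called on average over the diets whose groups do not overlap on at least 1 diet (the 12 with the smallest p), those called in the interaction, and the 2 with the smallest p in each diet comparison. Cxcl10, Cxcr3 and Cxcr5 were added after their values were seen. From each list the 2 called genes with the smallest p were named. Irf1 was chosen after its values were seen. Alternatives were RLE scaling, no filter, DESeq2 1.42.0, only the groups compared, the replicate number as a block, limma 3.58.1 on log2(TPM + 1) and log2(TPM + 0.1), marker covariates, and leaving out each library or those rich in B cell or muscle transcripts. Leaving out 4 such libraries and the fit with 3 covariates were added after seeing the data. Marker sums come from lists of cell type markers. The fits were tested on simulated data. In no comparison did every pair of same-numbered libraries correlate above 0.1, so the numbers were not taken as pairs. Single pairs did, up to 0.246 and 0.257 for replicates 1 and 2 of n6 against SFA in KO. Promoter windows came from RefSeq (GRCm38.p6) and gene positions from GENCODE M21.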

Additional observations from a re-analysis of the deposited data

Results flagged for a closer look

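In 14 members, 84 groups of 4 libraries were searched for a library far from the other 3 (Dixon's test), and 5 were found, where chance gives about 1 in 20 groups. Ccl2 was 2.32 CPM in KO on n3 replicate 3, against 3.33 to 3.46 CPM in the other 3 libraries, which lies further from the WT levels. Ccl11 was 41.6 CPM in KO on n6 replicate 1, the library high in muscle markers, against 32.3 to 32.4 CPM. Ccl11 was 54.0 CPM in WT on n3 replicate 2, against 45.2 to 46.5 CPM. Cxcl16 was 9.29 CPM in WT on SFA replicate 2, against 10.3 to 10.4 CPM. Ccl12 was 0.476 CPM in KO on n6 replicate 3, against 1.06 to 1.16 CPM, and was the 1 KO library there within the WT range.

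The genotype effect differed among the diets for 3 of 43 members by edgeR's interaction test: Cxcl9 (adjusted p = 0.0254), Ccl12 (adjusted p = 0.0457) and Ccl2 (adjusted p = 0.0481). Of all genes tested 6.44% passed, so the count was near that share. The calls were lost in 9, 28 and 27 of 36 alternatives for Cxcl9, Ccl12 and Ccl2. Over 36 alternatives the adjusted p ran from 0.000817 to 0.208 for Cxcl9, from 0.0105 to 0.418 for Ccl12 and from 0.0138 to 0.120 for Ccl2.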

How the results depend on the processing

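Ccl2, Ccl7 and Ccr2 kept their direction and call on each diet in all 37 alternatives. Their log2 fold changes ran from -1.24 to -0.85, -1.93 to -1.52 and -1.32 to -0.94 for Ccl2 on SFA, n6 and n3. Of 1982 comparisons of 54 gene results with an alternative, 1824 kept direction and side of the threshold, 154 lost the call and 4 turned direction. With macrophage markers as a covariate, Cxcl16 turned to 0.0255 on SFA and 0.0118 on average. With B cell, T cell and macrophage covariates, Cxcl16 turned to 0.00518 on SFA and Ccl6 to 0.0124 on n3. The cause was not tested.

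Members called with the macrophage covariate numbered 4 on SFA, 5 on n3, 9 on average, 5 for n6 against SFA in WT, 0 for n6 against SFA in KO and 6 for the interaction. With 3 covariates they numbered 5, 6 and 6 on SFA, n6 and n3, 6 on average, 3 and 0 for n6 against SFA in WT and KO, 3 for n3 against n6 in KO and 1 for the interaction. Without the 3 libraries rich in B cell or muscle transcripts, 13 were called on n6, 0 for n6 against SFA in KO, 1 for n3 against n6 in KO and 0 for the interaction; without 4, the last 3 counts were 1, 1 and 0. With only the groups compared, n6 against SFA and n3 against n6 in KO gave 4 and 2. TPM gave 14 (pseudocount 1) and 16 (pseudocount 0.1) for n6 against SFA in KO and 0 for the interaction, also with no filter. DESeq2 gave 4 for n3 against SFA in KO and 6 for the interaction, and counts with no filter gave 1 for the interaction. Shares of all genes called were counted in the main fit only.

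Leaving out each library in turn gave 11 to 17 members on SFA, 15 to 22 on n6, 9 to 14 on n3 and 18 to 21 on average. The diet comparisons in WT gave 7 (without WT on n6 replicate 1) to 13 for n6 against SFA, 0 for n3 against SFA, and 6 (without WT on n3 replicate 4) to 12 for n3 against n6. In KO they gave 4 (without KO on n6 replicate 4) to 17 (without KO on n6 replicate 3), 0 to 2 (without KO on SFA replicate 4, WT on n6 replicate 4 or KO on n3 replicate 4), and 2 (without KO on n3 replicate 3) to 15 (without KO on n6 replicate 3). The interaction gave 0 (without WT on n3 replicate 3 or 4, or KO on n3 replicate 1) to 5 (without KO on n3 replicate 4).

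With the replicate number as a block, 14, 21, 13 and 19 members were called on SFA, n6, n3 and on average, and 1 for the interaction. By the labels, same-numbered libraries share only a number.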

Other observations

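Markers of cell types not described above also changed between genotypes, as averages over the 3 diets (log2 fold change of KO against WT, edgeR with Benjamini-Hochberg adjustment). Among adipocyte markers, the hormone genes Lep fell by 0.68 and Retn rose by 0.52 (adjusted p = 6.12e-12 and 3.57e-09). Of 6 dendritic cell markers, 3 were lower and 1 was higher on average, and on n6 1 was lower and 1 was higher. Among the lower, Flt3 and Cd209a fell by 0.53 and 0.48 (adjusted p = 0.000169 and 0.000202). The natural killer cell receptors Klrk1 and Klrb1c fell by 0.43 and 0.41 (adjusted p = 0.000115 and 0.0243). These were 2 of 7 markers in the natural killer list, whose median was -0.07, and on n6 its median was 0.45 with 6 of 7 positive and 1 called higher. Of 5 endothelial markers only Kdr was called on average (0.30, adjusted p = 0.00235): on SFA 4 were higher, on n3 all 5 were negative and 2 were lower, and 3 passed the interaction test. Of lymphatic vessel markers, Pdpn fell by 0.32 (adjusted p = 5.41e-06) and Flt4 rose by 0.18 (adjusted p = 0.0394). Of 3 tested lymph node stroma markers only Fcamr was called on average, and it fell by 2.34 (adjusted p = 1.72e-09). The median of the 3 was -0.22, and 1 of them was positive. The gland epithelium markers Krt8 and Krt18 rose by 3.01 and 1.75 (adjusted p = 0.00254 and 0.00848). All 8 genes of that list averaged under 1 CPM in every group, and 4 were at 0 in WT on n3. Of the 6 tested, 5 were called higher on n3, and 0 were called on SFA or on n6. Of the muscle markers Acta1 fell by 0.98 and Myh4 rose by 2.56 (adjusted p = 0.00376 and 0.0243).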
